A study of Saccharomyces cerevisiae with 2 samples.

Results

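Short tandem promoters are the stretches of DNA between a pair of budding yeast genes (Saccharomyces cerevisiae) that are read in the same direction, where the end of one gene is followed closely by the start of the next. On a tiling array with probes spaced along the chromosomes, the shortest of these stretches hold a single probe. The 1103 regions described here are the nuclear probes that the array's annotation classes as promoter and whose gene has exactly 1 such probe. They were taken from 41775 probes that are no controls, of which 5869 are nuclear promoter probes of 2590 genes, and they lie on all 16 nuclear chromosomes. The choice used the annotation only, not the measured ratio.

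The study's 1 group holds 2 arrays, called replicate 1 and replicate 2, and the labels give no genotype and no strain. The cells had been arrested with the mating pheromone alpha factor, which holds cells of the a mating type in G1. Per the labels, DNA from chromatin cut with micrococcal nuclease, an enzyme that digests the linkers between nucleosomes, was labelled with Cy5, and genomic DNA from sonicated chromatin with Cy3, on both arrays. The labels do not say that the replicates came from separate cultures, and every p-value below rests on the difference between these arrays alone, possibly a technical one.

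In yeast, a nucleosome wraps DNA around a core of histones, and many gene starts are known for a stretch with few nucleosomes just upstream, flanked by well placed ones. Such stretches are kept open by general regulatory proteins, by chromatin remodelling complexes and by stiff runs of A and T. Where genes lie in tandem, the same short stretch also holds the end of the upstream gene's transcript, so that promoter and terminator share it.

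Values are log2 ratios of processed Cy5 over processed Cy3 with each array's median set to 0, so a value above 0 means relatively more of the DNA labelled nucleosomal than at a typical probe. The median raw signal of a spot was 32997 or more in Cy5 and 16928 or more in Cy3, with local backgrounds between 57 and 80.5. Of the 1103 members, 1092 were kept. The other 11 were left out, 7 for a non-uniform spot (DNF3, SPE4, TOM1, VPS3, YGL108C, YPF1 and YPR172W, from 0.52 to 3.11) and 4 for Cy3 not well above background (GAL80, NFS1, PAU21 and SPH1, from -0.35 to -0.061). Cy5 was saturated on both arrays at 59 kept members, or 5.40%, against 3.79% of all kept probes. At 7 of these Cy3 was saturated on both arrays too. Where Cy5 alone was saturated the ratio is a lower bound.

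The annotation was checked against the coding probes around each member. Coding probes of the member's own gene were found for 1070 members, and they lay on the side that the gene's strand gives for 1067 and on the opposite side for 0. The flanking coding probes were a median of 535 bp apart (quartiles 451 to 645), against 860 bp for probes of promoters with 2 or 3 probes and 2117 bp for those with 4 or more. Of the 1062 members whose flanking genes have a known strand, 1024 had both on 1 strand and 38 did not. In 49 members the flanks were more than 1000 bp apart, a distance that can span genes with no coding probe. The widest gap, of 21129 bp, lay between FLO1 and YAR075W.

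The members lay high on both arrays. Their median ratio was 1.09 on replicate 1 and 1.13 on replicate 2, a mean of 1.11 ± 0.028 (SD, n = 2 arrays). Since the nucleosome-poor stretch upstream of many yeast genes would give a low ratio of nucleosomal to genomic DNA, this sign is opposite to the textbook pattern when the channels are read as labelled. The labels state the same dyes for both arrays, so that direction is kept here, and its cause was not tested.

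The members differed widely among themselves. The quartiles were -0.023 and 2.17, and the whole range was from -2.43 to 4.66. In all, 812 members were above 0 on both arrays, 272 were below 0 on both, and 8 had opposite signs. Ratios above 3 were found at 112 members, above 2 at 311, between -0.5 and 0.5 at 230 and below -1 at 56. The SD across members was 1.39, against 0.71 across 30056 coding probes.

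In limma's test of each probe against the array median, with Benjamini-Hochberg adjustment over all 41454 kept probes, 801 members (73.4%) were called above 0, 264 (24.2%) below 0 and 27 in neither direction. Over all kept probes, 46.9% were called above and 47% below, so nearly every probe of these arrays passes this test. The share of members above 0 is therefore read against those backgrounds, not as rare calls. The arrays gave nearly the same value for most members, with Pearson's r of 0.999 and Spearman's rho of 0.999 across 1092 members. The median gap between arrays was 0.037, and it was over 0.3 at 4 members.

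**Figure D1:**
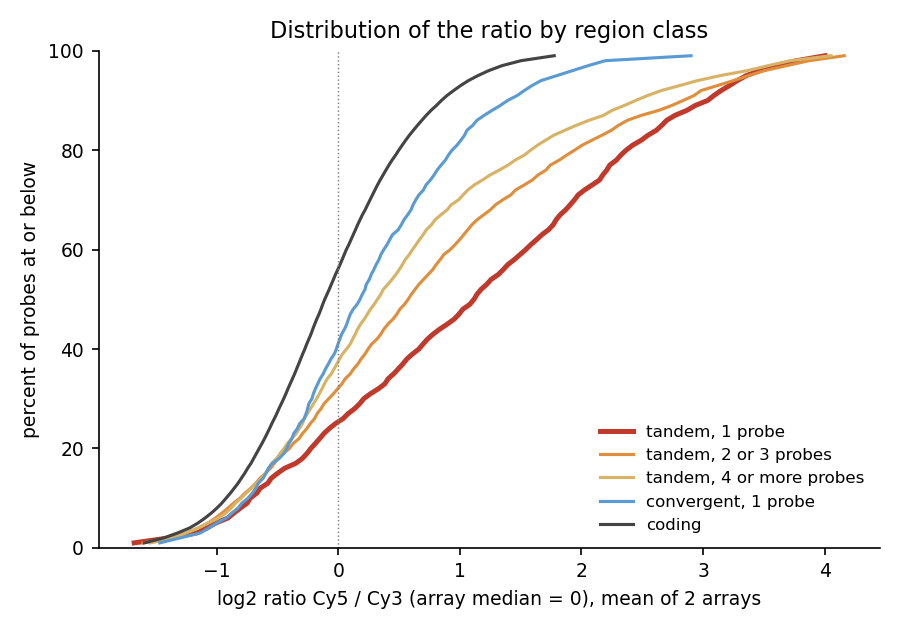
Cumulative share of probes (y axis, percent) at or below each log2 ratio of Cy5 over Cy3 (x axis, mean of 2 arrays, array median at 0). The lines are members (tandem, 1 probe), other tandem promoters, convergent regions with 1 probe and coding probes, and the members' line lies farthest to the right over most of its length, with a median of 1.12 for the means of 2 arrays.

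The plot of cumulative shares sets the members beside other tandem promoters, convergent regions with 1 probe and coding probes, but does not draw divergent regions. Probes of tandem promoters with 2 probes, the class just outside the rule, had a median of 0.63 ± 0.0074 (SD, n = 2 arrays), those with 3 probes 0.51 ± 0.014, and those with 4 or more 0.32 ± 0.0058. The median thus fell with each step in the number of probes. Members exceeded promoters with 2 or 3 probes by 0.54 ± 0.022 and those with 4 or more by 0.79 ± 0.022.

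Single-probe regions of other kinds were also compared. Regions between divergent genes, which hold promoters of both neighbours, had a median of 0.94 where they held 1 probe (439 probes), which was 0.17 ± 0.012 under the members. Regions between convergent genes, which hold terminators and no promoter of the flanking genes, had a median of 0.17 where they held 1 probe (983 probes), which was 0.94 ± 0.022 under the members. Coding probes had a median of -0.11. With 2 arrays an exact sign-flip test cannot go below 0.5, so these differences of medians are given without a test, each having the same sign on both arrays.

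Short promoters place their probe close to the gene start, so the comparison was repeated at matched distance from the nearest coding probe of the gene itself. Between 90 and 150 bp, members had a median of 1.22 and promoters with 2 or 3 probes 0.49. From 150 to 200 bp the medians were 1.25 and 0.63, and from 200 to 250 bp they were 1.23 and 0.71. The difference from promoters with 2 or 3 probes was 0.73, 0.62 and 0.52 in these classes.

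At larger distances the classes came closer together. The difference was 0.29 from 250 to 300 bp, 0.22 from 300 to 400 bp and 0.16 from 400 to 600 bp, where 66 members remained. Against promoters with 4 or more probes it was 0.89, 0.94 and 0.93 in the 3 nearest classes, and 0.70, 0.40 and 0.25 in the 3 farther ones. Members were higher in each class on both arrays, by less in the farther classes. The part of distance in the pooled difference was not tested.

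**Figure D2:**
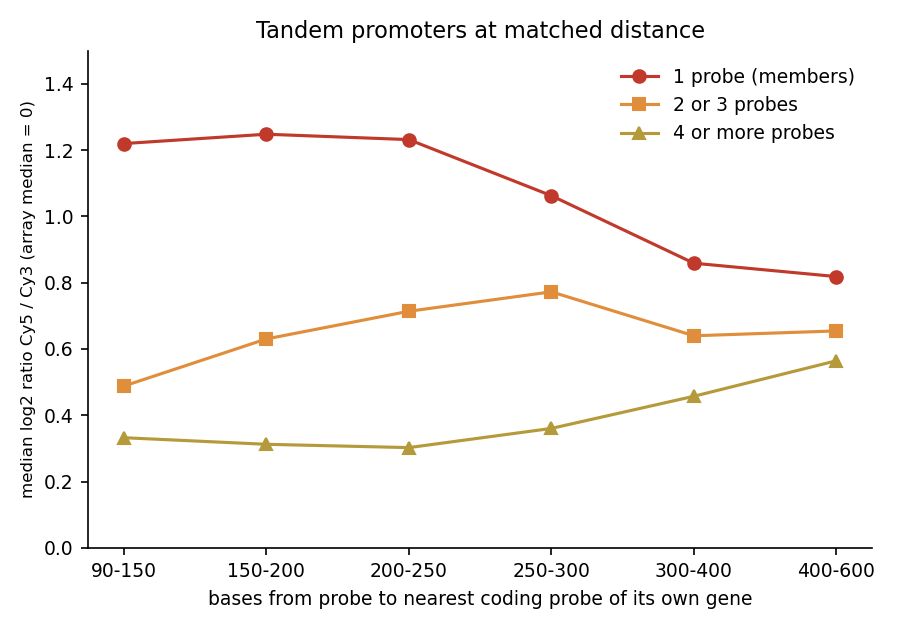
Median log2 ratio (y axis, mean of the medians of 2 arrays) by distance in bases from the probe to the nearest coding probe of its own gene (x axis) for tandem promoters with 1 probe (members), 2 or 3, and 4 or more. The members lie highest in each distance class, between 0.82 and 1.25. The line for 2 or 3 probes comes closer to theirs with each class, and that for 4 or more from 250 bases outward.

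The length of the gap itself went with the ratio among members. Members with flanking coding probes 250 to 400 bp apart had a median of 1.31, and those 400 to 500 bp apart 1.39. The median was 0.99 from 500 to 600 bp and 0.99 from 600 to 800 bp. It was 0.70 from 800 to 1000 bp (53 members) and 0.47 beyond 1000 bp (49 members). Across single members the relation was weak, with Pearson's r of -0.094 and Spearman's rho of -0.11 over 1059 members, which share arrays and, in part, neighbours.

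Wide gaps held members of both signs. SGO1, which encodes shugoshin, a guardian of centromeric cohesion, had a gap of 3680 bp and a ratio of -1.88. POR1, which encodes the main pore of the mitochondrial outer membrane, had a gap of 7434 bp and a ratio of 1.75. The promoter of RPL43B, a protein of the large ribosomal subunit, lay in a gap of 2831 bp next to IME1 and had 2.43. These gaps lie between coding probes and are not the length of the promoter: by gene order on R64, SGO1 follows YOR072W-B, while the flanking coding probe belongs to NRT1. By the same order, RPL43B follows a feature that is neither a protein-coding gene nor a transfer RNA gene.

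Each member was next set against the coding region of its own gene, which removes differences between genes that promoter and coding region share. The ratio was higher in the promoter by a median of 1.15 ± 0.012 (SD, n = 2 arrays) over 1057 members. In limma's test of this difference over 2482 tandem genes, 787 members were called higher than their coding region, 240 lower and 30 neither. Over all genes tested, 77% were called higher and 19.3% lower. The share of members called higher, 74.5%, was close to that background, which includes the members, and 22.7% were called lower. Of genes with several promoter probes, averaged per gene, 78.9% were called higher and 16.7% lower. Averaging several probes may change the share called, which was not tested, so these shares are not read as a difference between the groups. Those genes differed from their coding regions by a median of 0.80, against 1.15 for the members. A difference above 2 was found at 320 members and one under -1 at 60.

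The largest such difference was at YCR043C. Its promoter probe (chr3:206671-206729, in the array's own coordinates, of a build not given in the sources used here) had 3.72 and 3.75, while its 1 coding probe had a mean of -2.28. The difference was 6.01 (limma adjusted p = 3.7e-07). POS5, which encodes a mitochondrial NADH kinase, followed with 4.23 and 4.22 in the promoter and a difference of 4.74 over 4 coding probes.

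HCA4, an RNA helicase of ribosome assembly, differed by 4.57, and NOP10, a protein of the particles that modify ribosomal RNA, by 4.49. SHE1, a spindle protein that regulates dynein, also differed by 4.49, and its Cy5 spot was saturated on both arrays, so the value is a lower bound. All 5 genes had a high promoter and coding means below 0, from -2.28 to -0.17, which a choice by largest difference favours.

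The opposite order was found at 3 genes known here by systematic name only. YGR240C-A had a promoter ratio of 0.05 and a coding ratio of 3.86, a difference of -3.81, and its promoter value alone was not called (limma adjusted p = 0.21). YOR161C-C had -0.19 against 2.42 and YHR007C-A -0.19 against 2.4, differences of -2.61 and -2.59. Each of these 3 has 1 coding probe, and it is that probe, not the promoter, that lies far from 0. DDC1 and BUD21, with differences of -2.42 and -2.39, are the reverse case, since their coding means were 0.15 and -0.038 and the promoter probe was low.

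The ratio was also read along the chromosome, from the last coding probe of the upstream gene over the promoter to the first coding probe of the gene itself. Over 1046 members with both flanks, the medians were -0.034, 1.11 and 0.0010 in that order. The promoter thus formed a peak between coding probes that sat near the array median on both sides. The member exceeded the mean of its flanks by a median of 1.09 ± 0.00096 (SD, n = 2 arrays) over 1087 members.

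**Figure D3:**
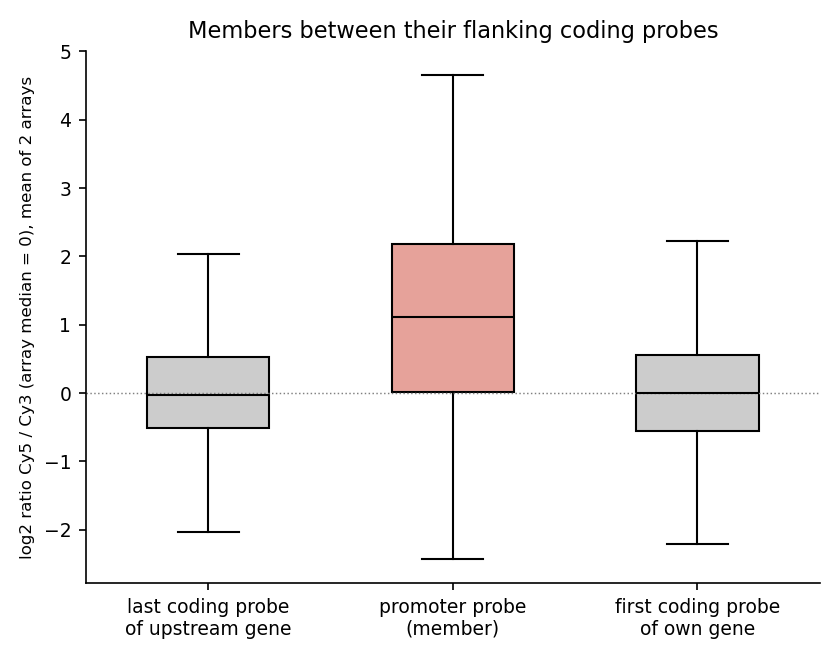
Log2 ratio of Cy5 over Cy3 (y axis, mean of 2 arrays) at the last coding probe of the upstream gene, at the promoter probe and at the first coding probe of the gene itself, for 1046 members. Boxes span the middle 50% with the median as a line, whiskers reach to 1.5 box lengths and points beyond are not drawn, and the promoter median (of the means of 2 arrays) of 1.12 stands above both flanks.

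In limma's test over 5746 promoter probes, 786 members were called above the mean of their flanks, 260 below and 41 neither. Over all promoter probes, 64.8% were called above and 30.5% below, and the members' share above was 72.3%. On both arrays, 694 members (63.8%) lay above each of their flanks, 190 between them and 171 (15.7%) below each. For probes of promoters with 2 or 3 probes, 56.6% lay above each flank and 20.3% below each. For those with 4 or more, the shares were 50.7% and 25%.

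The members' values had little to do with those of their neighbours. Pearson's r was 0.057 with the gene's own first coding probe (1051 members) and 0.051 with the upstream gene's last coding probe (1054 members), and Spearman's rho was 0.062 and 0.060. These pairs share arrays and depth. There were 217 pairs in which a gene and the gene just upstream of it on the same strand both had a member promoter, with flanks no more than 1000 bp apart. Across these pairs r was -0.082, and 117 were both above 0, 10 both below and 90 of opposite sign. Since 812 of the 1092 kept members were above 0 on both arrays, many pairs above 0 would arise without any link between neighbours.

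Some neighbouring promoters stood far apart. The promoter of ATG8, which encodes the ubiquitin-like protein of autophagosome membranes, had 3.90 and 4.0, while that of ILS1, the isoleucyl-tRNA synthetase gene just upstream of it on chromosome 2, had -0.74 and -0.82. The ILS1 probe was saturated in both channels, and its ratio was -0.065 after loess. SKI2, an RNA helicase of messenger RNA decay, had 3.58, while the promoter of AFG2, the gene after it on chromosome 12, had -1.24. At the other end, NMD3 and ATG7 on chromosome 8 had 2.06 and 2.05. These pairs, chosen after their values were seen, show that adjacent promoters could hold nearly equal or opposite ratios.

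The highest member was FAR1, which encodes the inhibitor that holds cells in G1 when mating pheromone is present. Its probe (chr10:126220-126279, array coordinates) had 4.67 on replicate 1 and 4.64 on replicate 2 (limma adjusted p = 4.3e-07), while its coding region had a mean of 0.25 over 10 probes and the upstream gene SSY5 ended at -0.41. HMT1, an arginine methyltransferase of RNA-binding proteins, followed with 4.41 and 4.53, and its flanks were at -0.18 and 0.04. Both promoters rose far above coding probes on either side that were near the array median.

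Of the other members among the top 10, HCA4 had 4.36 and 4.43, and UTP13, part of the complex that processes the small subunit's ribosomal RNA, had 4.29 and 4.22. NAM7, the helicase of nonsense-mediated decay, had 4.16 and 4.31, and MSL5, which binds the branch point of introns, had 4.08 and 4.03. The arrays lay closer together at HCA4, UTP13 and MSL5 than at NAM7. POS5 and GGC1, the carrier of GTP and GDP into mitochondria, had means of 4.23 and 4.13.

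RPS30A, a protein of the small ribosomal subunit, had 3.99 and 4.07. AMA1, an activator of the anaphase-promoting complex in meiosis, had 3.90 and 4.16, the widest gap between arrays among the top 10. The sizes at the top depend on the processing. The normexp alternative corrects raw signals for background and leaves out the detrending and dye normalization of the processed signals. After the normexp correction of raw signals, FAR1 had 2.85, HCA4 2.92 and UTP13 2.91, and the others of these 10 lay between 2.87 (AMA1) and 3.88 (HMT1), all still above 0.

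**Figure D4:**
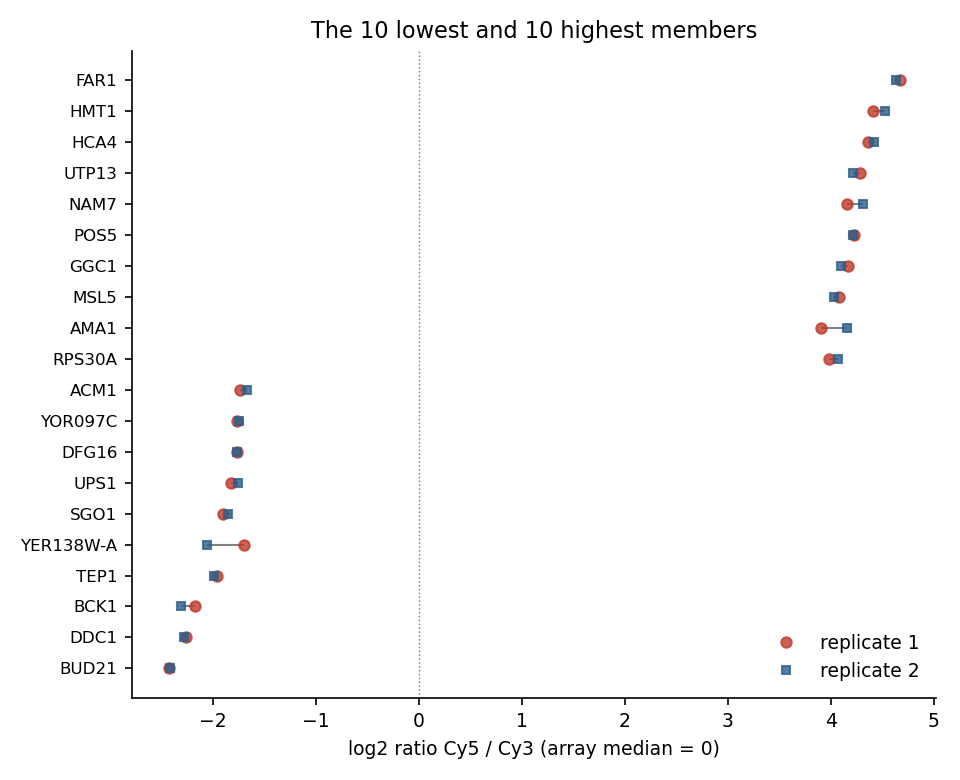
Log2 ratio of Cy5 over Cy3 (x axis, array median at 0) of the 10 lowest and the 10 highest members (y axis, by gene) on replicate 1 (circles) and replicate 2 (squares), joined by a line. The arrays lie farthest apart at YER138W-A, at -1.70 and -2.06, and AMA1, at 3.90 and 4.16.

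The lowest member was BUD21, a component of the same ribosomal RNA processing complex as UTP13. Its probe (chr15:472689-472748, array coordinates) had -2.43 and -2.42 (limma adjusted p = 5.0e-07), next to an end of the upstream gene RTS2 at 2.82. DDC1, part of the clamp that signals DNA damage, had -2.26 and -2.28, and BCK1, a kinase of the cell wall integrity pathway, had -2.17 and -2.32. TEP1 had -1.97 and -1.99.

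These lows are unequally firm, since TEP1 turned to 1.32 after normexp and BUD21 moved to -1.0. No limit on Cy5 against background was set, so low ratios may include dim Cy5 spots. YER138W-A had -1.70 and -2.06, the widest gap between arrays in the plot of extremes, and turned to 2.27 after normexp, and it has no coding probe of its own. SGO1 followed at -1.88. UPS1, a carrier of lipids between the mitochondrial membranes, was at -1.79, DFG16, a sensor protein of the pathway that responds to alkaline conditions, at -1.77, and YOR097C at -1.76. ACM1, an inhibitor of the anaphase-promoting complex, was at -1.70. After normexp, ACM1 had -0.41, YOR097C -0.50 and DFG16 -1.08.

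The members nearest to the array median were VPH1, a subunit of the vacuolar proton pump, RPS26A of the small ribosomal subunit, and FPY1. Their means were 0.01, -0.01 and -0.01, with limma adjusted p-values of 0.64, 0.71 and 0.65. After normexp, FPY1 had 1.09, RPS26A 0.64 and VPH1 -0.34. Their place at the middle thus changed with the processing, and which of its steps matters was not tested.

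The ratio's order among members followed the genomic channel more than the nucleosomal one. From the lowest to the highest quartile group of members by ratio (273 each), median processed Cy3 on replicate 1 was 2138, 957, 548 and 242. Median processed Cy5 was 1224, 1279, 1562 and 1668. The genomic channel thus fell over a far wider range than the nucleosomal channel rose.

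Over all kept probes the medians were 1456 in Cy3 and 1446 in Cy5 on that array. Across 1092 members, Pearson's r of the ratio was -0.79 with log2 Cy3 on both arrays, and 0.26 and 0.25 with log2 Cy5 on replicates 1 and 2. Each channel is part of the ratio, which alone gives correlations of these signs. Among the 246 members with Cy3 above the median of all probes on both arrays, the median ratio was -0.53, and it was -0.33 for promoters with several probes and -0.35 for coding probes under the same limit. A limit on the denominator lowers ratios by construction, and members lay 0.20 below promoters with several probes there, the reverse of their order without it. The part of probe brightness in the members' high ratio was not tested.

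Gene groups were described by their counts and medians, beside those of all 1092 kept members (73.4% called above 0, median of the means 1.12) and of all probes (46.9% called above). The 20 lists hold 378 of the kept members, and all calls below are limma's against the array median. They were chosen with earlier results of these data known, so no list is called particular.

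**Figure D5:**
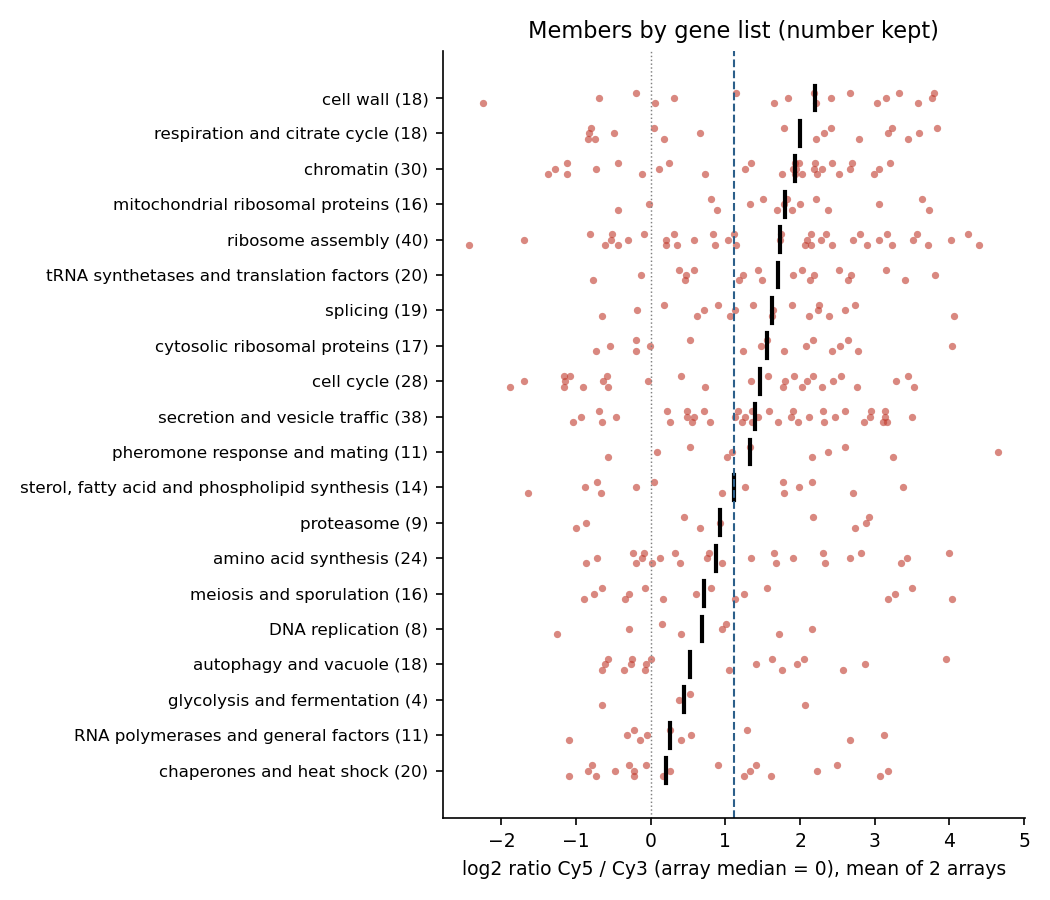
Log2 ratio of Cy5 over Cy3 (x axis, mean of 2 arrays, array median at 0) of each kept member (points) of 20 gene lists (y axis, number of members kept), with the list's median as a black bar. The dashed line is the median of all kept members, 1.12, and every list spreads over both sides of it.

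Pheromone response is the pathway that the arrest engages: a surface receptor binds the partner's pheromone, a kinase cascade turns on mating genes, and cells stop in G1 and fuse. Of 11 kept members on this list, 10 were called above 0 and 1 below, and the median was 1.33. Beside FAR1, the highest were STE24, a protease that matures the a-factor pheromone, with 3.22 and 3.27, PRM4, a pheromone-regulated protein, with 2.54 and 2.68, and MFA2, an a-factor precursor, with 2.31 and 2.45. AGA1, the anchor of the a-cell adhesion protein, had 2.15 and 2.17 with Cy5 saturated on both arrays, so the ratio is a lower bound.

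The rest of the list lay lower. FAR11, which keeps cells arrested, had 1.35 and 1.32, KAR1, needed for nuclear fusion, 1.04 and 1.13, and BAR1, the protease that degrades alpha factor, 1.05 and 0.99. MSG5, a phosphatase that damps the cascade, had 0.51 and 0.55. PRM9, another pheromone-regulated membrane protein, had 0.08 on both arrays and changed sign after loess scaling (-0.23) and without centring (-0.05). KAR9, which orients the spindle, had -0.59 and -0.57 and was the only one called below 0, a call lost after loess (-0.061, limma adjusted p = 0.089). MSG5 was no longer called after normexp (0.18, limma adjusted p = 0.17). Against their own coding regions, FAR1 (4.4), STE24 (3.22) and PRM4 (2.28) stood well above, while KAR9 (-0.41) and PRM9 (-0.14) stood below. The list thus held the highest of all members by the processed signals, FAR1, as well as values near and below 0. After normexp FAR1 was not the highest, with 2.85 against 3.88 for HMT1.

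Genes of protein synthesis had medians above that of all members. Cytosolic ribosomal proteins had 12 called above and 4 below of 17, with a median of 1.57, from RPP1A (-0.74, saturated in both channels, and 0.02 after loess) to RPS30A. Of paralogous copies, RPL16A and RPL16B had 2.64 and 0.52, while RPL36A and RPL36B lay closer together at 2.77 and 1.78. Mitochondrial ribosomal proteins had 14 above and 1 below of 16 and a median of 1.80, from MRPL17 (-0.44, and 0.047 after normexp) to RSM28 (3.73, Cy5 saturated, a lower bound).

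Ribosome assembly, the largest list, had 31 above and 8 below of 40 and a median of 1.74, and it holds both BUD21 and HCA4, so it spans nearly the whole range of members. Of 20 transfer RNA synthetases and translation factors, 18 were above and 2 below, with a median of 1.71, from ILS1 (-0.78, saturated in both channels) to SUI2, a subunit of the factor that brings the initiator transfer RNA, at 3.81. Splicing genes had 17 above and 2 below of 19 and a median of 1.62, from STO1 of the cap-binding complex (-0.66) to MSL5.

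Cell wall genes had the highest median of the 20 lists, 2.20, with 15 called above and 3 below of 18. They ran from BCK1 to MNN10, a mannosyltransferase, at 3.80. SLT2, MKK1 and MKK2, the kinases that act below BCK1 in the cell wall integrity pathway, had 3.33, 2.66 and 1.66, on the other side of 0 from BCK1. Secretion and vesicle traffic had 33 above and 5 below of 38 and a median of 1.40, from VPS4, the ATPase that recycles the endosomal sorting machinery (-1.04), to VPS21, an endosomal GTPase (3.5).

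Genes of chromatin had 23 called above and 7 below of 30, with a median of 1.93. POB3, a subunit of the FACT histone chaperone, was highest with 3.16 and 3.26, and the subunits RSC58, NPL6, RSC4 and RSC6 of the RSC remodeller, which keeps promoters open, had 3.06, 2.99, 2.19 and 1.94. UME1, part of a histone deacetylase complex, was lowest with -1.41 and -1.35. ARP9, also a subunit of RSC, had -1.29, so the complex's promoters were not all high.

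RNA polymerases and general factors had 6 above and 4 below of 11 and a median of 0.26, from PGD1 of the Mediator complex (-1.10) to SPT4, an elongation factor (3.13). DNA replication genes had 6 above and 2 below of 8 and a median of 0.68, from RNH201, the catalytic subunit of a ribonuclease H (-1.25), to SLD3, which fires origins (2.16).

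Cell cycle genes had 17 called above and 10 below of 28 and a median of 1.46, and they ran from SGO1 to BFA1, which restrains mitotic exit (3.52). CDC28, the cyclin-dependent kinase itself, had -0.57, while the polo kinase gene CDC5 had -1.16. APC5, DOC1 and APC9 of the anaphase-promoting complex had 3.44, 2.44 and 2.10, and CDC27 and SWM1 of the same complex had -0.64 and -0.59. Subunits of this complex thus lay on both sides of 0. Meiosis and sporulation genes, which are mostly silent in growing haploid cells, had 10 above and 6 below of 16 and a median of 0.71, from OSW2 of the spore wall (-0.89) to AMA1.

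Metabolic lists were mixed. Respiration and the citrate cycle had 12 above and 5 below of 18 and a median of 2.0, from MDH1, mitochondrial malate dehydrogenase (-0.84, and 0.46 after normexp), to STF1, which acts with the inhibitor of the mitochondrial ATPase (3.83). In that list, SDH4, SDH5 and SDH2 of the succinate dehydrogenase system had -0.75, -0.80 and 0.04. COX8, COX5B and COX7 of cytochrome oxidase had 3.23, 3.18 and 0.66. Of other genes needed to make this oxidase, COX14, SHY1, COX18 and PET494 had 3.60, 2.79, 1.79 and 0.18, while COX10 and COX15 had -0.49 and -0.83. Genes of the oxidase thus lay on both sides of 0. Glycolysis and fermentation had 3 above and 1 below of 4 and a median of 0.45, from GPM3, a relative of phosphoglycerate mutase (-0.65), to CDC19, pyruvate kinase (2.07, in a gap of 2375 bp). By gene order on R64, CDC19 follows CYC3 on the other strand, so its promoter is not a tandem one.

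Amino acid synthesis had 17 above and 6 below of 24 and a median of 0.88, from TYR1 of tyrosine synthesis (-0.87, saturated in both channels, and -0.19 after loess) to BAT2, a branched-chain aminotransferase (4.0). Synthesis of sterols, fatty acids and phospholipids had 8 above and 5 below of 14 and a median of 1.11, from ECT1 (-1.65) to PSD1 (3.38). Both of these enzymes act in the making of phosphatidylethanolamine, and their promoters stood at opposite ends of the list.

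Lists of protein folding and turnover were mixed too. Chaperones and heat shock genes had 11 above and 8 below of 20 and the lowest median of the lists, 0.21, from MGE1, a partner of mitochondrial Hsp70 (-1.10), to SSZ1, a chaperone at the ribosome (3.17). The paralogs SSB1 and SSB2 had -0.84 and -0.07. The proteasome had 7 above and 2 below of 9 and a median of 0.93, from RPN1 (-1.0) to RPN2 (2.92), which are both scaffold subunits of its regulatory particle. Autophagy and vacuole genes had 9 above and 8 below of 18 and a median of 0.53, from VMA1, the catalytic subunit of the vacuolar proton pump (-0.65, and 1.41 after normexp), to ATG8.

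Place in the genome was described last. Chromosome medians ran from -0.056 on chromosome 1 (16 members) to 1.64 on chromosome 12 (86 members), and the other 14 lay between 0.74 and 1.5. By gene order on assembly R64, 1048 kept members follow a protein-coding gene on the same strand, with a median of 1.12. The 23 that follow a gene on the other strand had a median of 0.49, and the 10 that follow a transfer RNA gene had 0.84. By probe length, the median was 0.74 under 55 bases (15 members), 1.35 from 55 to 59 bases (215 members) and 1.03 at 60 bases (862 members).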

How the data were processed

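Nucleosomal (Cy5) and genomic DNA (Cy3) were measured on 2 two-colour arrays of 1 group with the dyes never swapped, and averaging leaves any dye bias in place. Per the labels' protocols, linear amplification preceded labelling. Linear intensity is what the deposited scanner files hold: raw means, local backgrounds, and processed intensity that Agilent Feature Extraction 9.1.3.1 background-subtracted, detrended and dye-normalized, per the file headers. The deposited value table of the authors holds log2 values, which equal log2 of processed Cy5 over Cy3 to within 5.00e-06, uncentred (medians -0.13 and -0.13). The deposited log10 ratio was not used.

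Log2 ratios were centred on each array's median over 41775 probes that are no controls. Spots flagged non-uniform (174) and probes with Cy3 not well above background on an array (147) were left out, and saturated spots stayed, leaving 41454. No such limit was set on Cy5. The number of arrays limits the precision. Both lay on 1 slide scanned together, so no batch could be tested.

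Probes, promoter minus own coding mean, and promoter minus mean of the nearest coding probe on either side were tested with limma 3.58.1 in R 4.3.3 (an intercept fit with eBayes, 1 residual degree of freedom), with Benjamini-Hochberg adjustment at 0.05 over all features, after the code was tested on simulated data. Medians are given per array, with mean ± SD over 2 arrays. Other work used Python 3.11.15, numpy 2.4.6, pandas 2.3.3 and matplotlib 3.10.9.

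Names were matched to a RefSeq table of R64 (1097 members, 206 with a newer symbol), used for names and gene order only. Alternatives were normexp (offset 50) on raw signals, loess, no or nuclear centring, no probe filter, no saturated probes, the value table, eBayes with a trend, other coding or flank definitions, and each array alone. Planned descriptions by probe base composition and promoter motifs were not run, since no sequences were used here.

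The members and the lists were chosen with earlier results of these data known. Genes named by rule were the 10 highest and 10 lowest members past the threshold with 1 sign on both arrays, the 5 largest and 5 most negative differences from the own coding mean, the highest and lowest of each list, the 3 nearest to 0 and the whole pheromone list. Other genes named (further list members, neighbouring pairs, wide gaps, members left out) were chosen after their values were seen.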

Additional observations from a re-analysis of the deposited data

How the results depend on the processing

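No paired analysis was possible because the arrays form 1 group and each pairs both DNA samples already. With 1 array no test can be run, so counts of calls have no value without a replicate. Without a replicate the members' median was 1.09 to 1.13, the excess over promoters with several probes 0.65 to 0.69, the difference from the own coding region 1.14 to 1.15 and that from the flanks 1.09 to 1.09. The members' median (1.11) was 1.44 after normexp, 0.86 after loess and 0.98 without centring. With only same-strand flanks at most 1000 bp apart, an alternative added after seeing the data, it was 1.14, and with only probes of Cy3 above its median, also added then, it reversed to -0.53. The excess over promoters with several probes (0.67) was 0.56 after loess, 0.61 with only the probe nearest to the own coding region, 0.70 with same-strand flanks, and -0.20 with Cy3 above its median. The Cy3 limit selects on the denominator and so lowers ratios by construction.

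The difference from the own coding region (1.15) was 1.48 after normexp, 0.97 after loess and 1.03 against the first coding probe. The difference from the flanks (1.09) was 1.32 after normexp, 0.93 after loess, 1.08 with no probe filter, 1.10 without saturated probes and 1.15 with flanks within 500 bp. After normexp, 134 members in place of 240 were called below their own coding region, and 137 in place of 260 below their flanks. The cause was not tested. Counts of members called against the array median stayed within 1.5 times under each alternative run.

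Of the 70 genes named by rule, 9 reversed after normexp: FPY1 (1.09), MDH1 (0.46), MRPL17 (0.047), RPS26A (0.64), TEP1 (1.32), VMA1 (1.41), VPH1 (-0.34), YER138W-A (2.27) and YGR240C-A (-0.30). After loess 3 reversed, PRM9 (-0.23), RPP1A (0.023) and YHR007C-A (0.18), and without centring 3, PRM9 (-0.050), VPH1 (-0.12) and YGR240C-A (-0.082). Without replicate 1 and without replicate 2 in turn, FPY1 was 0.0059 and -0.025 and YGR240C-A -0.0045 and 0.095. The cause was not tested. Descriptions by base composition and by motif were not run. Of the 59 members with Cy5 saturated on both arrays, 7 had Cy3 saturated on both arrays too. Where Cy5 alone was saturated, the ratio is only a lower bound.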
